A study of Mus musculus with 8 samples.

Results

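The 10 genes studied here encode peptide and amino acid transporters of the small intestine, namely Slc15a1, Slc6a19, Slc7a9, Slc3a1, Slc7a7, Slc7a8, Slc6a20a, Slc1a1, Slc3a2 and Slc7a5. Their transcripts were measured by RNA sequencing in organoids grown from isolated crypts, that is, in cultures of gut epithelium held in a gel. A gene was taken by its Ensembl identifier, and its rows were kept where their coordinates matched exon boundaries of that gene in GRCm38. Of the 10 genes, 9 had a value, out of 13081 genes with a value in the whole series. No row carried the identifier of Slc7a5, a light chain for large neutral amino acids, and this gene was not analysed here. All 9 passed the filter of a mean of at least 0.5 FPKM that left 10271 genes for testing.

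The 8 samples were 4 cultures from wild type littermates (WT) and 4 from MG53-TG mice, which overexpress the E3 ligase MG53, the product of Trim72, in all tissues. The organoids were grown in Matrigel with IntestiCult OGM medium and had no further treatment in the labels, which give no age and do not say that each culture came from a separate animal. The p-values therefore measure the spread between these cultures, which may be technical. The promoter of the transgene is not given in the sources used here, and a passage of the study's text places the transgene in mice that also carry an Lgr5 reporter allele, which the labels do not name. Trim72 had no row in WT and reached 16.4, 27.4, 31.9 and 36.5 FPKM in the MG53-TG cultures.

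Dietary protein reaches the enterocyte as small peptides and free amino acids. Carriers in the brush border take them up against a gradient of protons or sodium, or in exchange for amino acids of the cell, and carriers in the basolateral membrane release them towards the blood. Several are pairs of a light chain that forms the path and a heavy chain that brings it to the membrane. In the intestine several of the brush border carriers are known as products of mature absorptive cells on the villus, whereas Slc3a2 and Slc7a5 are widely expressed, in dividing cells as well.

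Cell type markers moved with the genotype. All 15 enterocyte markers were higher in MG53-TG, with a summed level of 1078 to 1253 FPKM in WT and 12025 to 13449 FPKM in MG53-TG and a median log2 fold change of 3.29. Of 12 stem cell markers, 8 were lower, of 12 proliferation genes 9 were lower, of 8 goblet markers tested 6 were lower, all 7 Paneth markers tested were lower, and of 9 enteroendocrine markers tested 5 were higher, beside 15.5% of all genes tested as higher and 29.2% as lower (adjusted p of at most 0.05, limma). Msi1 of the stem cell list and Defa22 and Pla2g2a of the Paneth list passed the expression filter through WT alone. Summed proliferation genes were at 436 and 455 FPKM in MG53-TG replicates 1 and 2 and at 212 and 149 FPKM in replicates 3 and 4, below the 574 to 650 FPKM of WT, and summed goblet markers were at 189 and 261 FPKM against 431 and 512 FPKM. The MG53-TG cultures thus fell into pairs, and the transporter calls were repeated without each pair. Mesenchyme markers summed to 1.80 to 3.24 FPKM in WT and 1.31 to 5.65 FPKM in MG53-TG. Of these, the collagen genes Col1a1, Col1a2 and Col3a1 had no row in any WT culture and none in MG53-TG replicate 1. The absence was counted as 0 in WT and as missing in MG53-TG replicate 1. In MG53-TG replicates 2 to 4 they were at 0.465 to 0.659, 0.739 to 2.07 and 0.904 to 1.62 FPKM. Pdgfra, Pdgfrb, Acta2 and Lum had no value. Of 3 mesenchyme markers tested, Col1a2 and Col3a1 were higher, and Vim did not pass the test. Both calls rest on WT values filled in as 0, and both genes passed the filter through MG53-TG alone. Immune markers, mostly Cd68, summed to 3.77 to 9.24 FPKM in WT and 0.609 to 1.47 FPKM in MG53-TG, and tuft markers to at most 1.19 FPKM. In these bulk samples a change in the number of cells of a type and a change in the RNA of each cell cannot be told apart, and the part of cell composition in any transporter result was not tested.

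Of the 9 transporters, 6 were higher in MG53-TG and the other 3 did not pass the test (adjusted p of at most 0.05, limma). The 6 were Slc6a19, Slc7a9, Slc15a1, Slc7a8, Slc7a7 and Slc3a1. Slc15a1 averaged under 0.5 FPKM in WT and passed the filter only through MG53-TG, where it is high, so that it had to differ, and it was not tested at a filter of 2 FPKM. Without it 5 of 8 were higher, with a median log2 fold change of 1.06. In each of the 6 the lowest MG53-TG culture lay above the highest WT culture. Over all 10271 genes tested, 44.7% passed the test, 15.5% as higher and 29.2% as lower, and 15.7% had MG53-TG cultures that all lay above WT and 29.1% that all lay below. A log2 fold change of at least 1 was reached by 5 of the 9 transporters and by 6.24% of all genes tested as a call in the higher direction. These 5 were Slc6a19, Slc7a9, Slc7a8, Slc7a7 and Slc15a1, the last of which had to differ. The median log2 fold change was 1.13 over the 9 transporters and -0.17 over all genes tested. With median-of-ratios scaling the median over all genes rose by 0.16, and higher genes made up 50.2% of all calls in place of 34.6% (44.8% with quantile normalization), and the 6 transporters were still called as higher under both. Leaving out MG53-TG replicates 3 and 4, or replicates 1 and 2, kept all 6 calls, and so did leaving out each culture in turn. For Slc15a1 this says nothing of its stability.

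**Figure D1:**
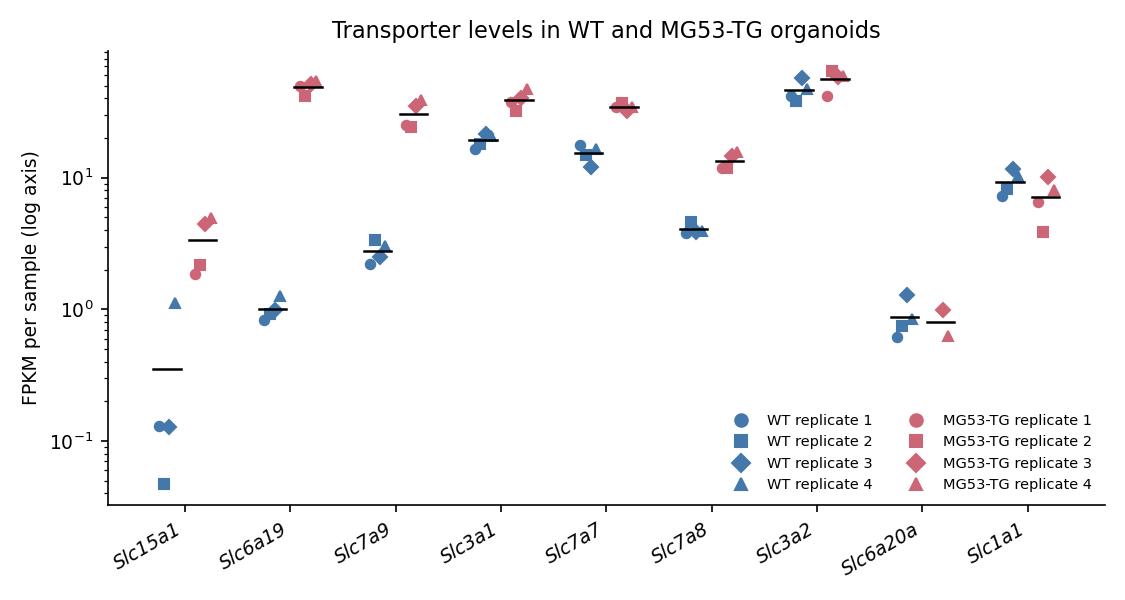
FPKM of the 9 transporters in each of the 8 cultures, on a log axis, with WT in blue, MG53-TG in red, 1 marker shape per replicate number and a bar at the mean of the cultures with a value. The groups are apart for the first 6 genes from the left, and they overlap for Slc3a2, Slc6a20a and Slc1a1.

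Slc6a19 had the largest fold change of the 9. It encodes the sodium-coupled carrier of neutral amino acids in the brush border (chromosome 13, 73679745 to 73704865, minus strand). Its level was 0.835, 0.915, 0.991 and 1.27 FPKM in WT replicates 1 to 4 and 49.4, 41.4, 51.4 and 54.3 FPKM in MG53-TG replicates 1 to 4. The WT cultures held close to 1 FPKM and every MG53-TG culture held over 40 FPKM. Summed over all starts, the means differed 49.0-fold. The log2 fold change of FPKM + 1 was 4.64 ± 0.12 (SE, n = 4 per group, adjusted p = 8.33e-08, limma).

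Slc6a19 was read from more than 1 start. The first exon of the coding transcript (73700432 to 73700780) was at 0.692, 0.773, 0.991 and 1.27 FPKM in WT and 14.3, 9.13, 17.6 and 19.4 FPKM in MG53-TG. A start inside intron 2 of that transcript, with the first exon at 73692489 to 73692636, was at 0.142 FPKM in WT replicates 1 and 2, was not listed in WT replicates 3 and 4, and reached 34.8, 32.1, 33.6 and 34.3 FPKM in MG53-TG. GENCODE gives the transcript from this start no coding sequence, whereas RefSeq's single promoter window of the gene is the window of this start. The start in intron 2 made up 17.1%, 15.5%, 0% and 0% of the FPKM of Slc6a19 starts in WT and 70.4%, 77.5%, 65.3% and 63.1% in MG53-TG, so the groups did not overlap. The shares differed by 60.9 percentage points (two-sided exact permutation test, p = 0.0286, adjusted p = 0.114 over the 4 genes whose start shares were compared), which did not pass after adjustment, and 0.0286 is the smallest p that 4 against 4 cultures allow. The WT shares rest on a gene level of 0.835 to 1.27 FPKM and on transcripts that share most of their exons.

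**Figure D2:**
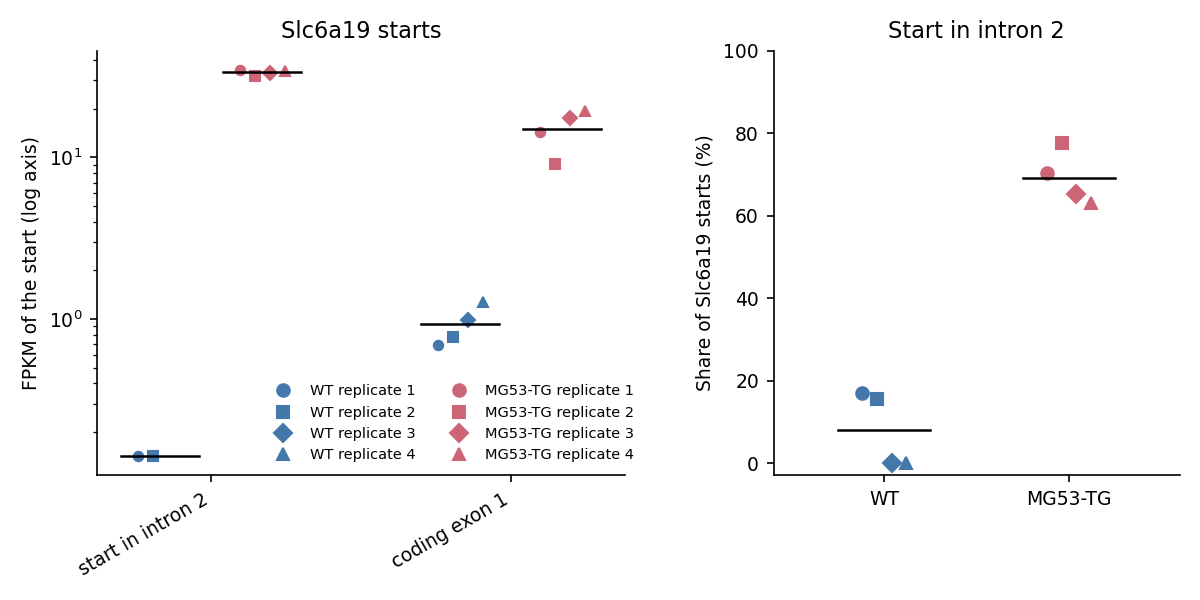
Left, FPKM of the Slc6a19 start in intron 2 and of the first exon of the coding transcript in each culture, on a log axis, with bars at the mean of the cultures that list the start. Right, share of the start in intron 2 in the FPKM of all Slc6a19 starts, in percent, with bars at the mean of 4 cultures. Both starts are higher in MG53-TG, and the share is 63.1% to 77.5% there against 0% to 17.1% in WT.

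The window around this start, from 250 bases before to 50 bases after it, is shown since most of the added Slc6a19 FPKM in MG53-TG was placed there. It lies at chr13:73692587-73692886 on the minus strand (RefSeq, GRCm38.p6) and is written 5′ to 3′ in the direction of the gene. Capitals would mark matches to the 7 motifs named below, of which this window held none.
Slc6a19 window: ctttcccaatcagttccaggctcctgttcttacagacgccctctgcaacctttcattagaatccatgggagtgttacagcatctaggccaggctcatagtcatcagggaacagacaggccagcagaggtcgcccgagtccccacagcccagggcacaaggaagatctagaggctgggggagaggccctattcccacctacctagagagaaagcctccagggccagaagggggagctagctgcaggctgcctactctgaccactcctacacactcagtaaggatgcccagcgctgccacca

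A retained intron was also listed for Slc6a19, and it is described without a test since it was chosen after its values were seen. Transcripts that keep intron 5 (73689158 to 73689500, 343 bases) had no row in WT and were at 7.83, 6.44, 11.7 and 14.4 FPKM in MG53-TG, which was 16.1%, 15.8%, 23.1% and 27.1% of the paired events with and without the intron. The whole gene was at 0.835 to 1.27 FPKM in WT.

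Slc7a9 and Slc3a1 encode the light and the heavy chain of the brush border exchanger for cystine and cationic amino acids. Slc7a9 (chromosome 7, 35448796 to 35466036, plus strand) was at 2.21, 3.34, 2.52 and 3.01 FPKM in WT replicates 1 to 4 and at 25.1, 24.1, 34.8 and 38.7 FPKM in MG53-TG replicates 1 to 4. Its level was at or below 3.34 FPKM in each WT culture and above 24 FPKM in each MG53-TG culture. The means differed 11.1-fold, with a log2 fold change of 3.05 ± 0.18 (SE, adjusted p = 6.13e-06, limma).

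Slc3a1, the heavy chain (chromosome 17, 85028376 to 85064236, plus strand), was at 16.6, 18.2, 21.4 and 20.9 FPKM in WT and at 37.5, 32.0, 40.0 and 47.3 FPKM in MG53-TG. It was therefore already well expressed in WT, where it ranked second of the 9. Its means differed 2.04-fold, with a log2 fold change of 0.98 ± 0.14 (SE, adjusted p = 0.000685, limma).

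The light chain came closer to the heavy chain. The ratio of Slc7a9 to Slc3a1 FPKM was 0.133, 0.184, 0.118 and 0.144 in WT replicates 1 to 4 and 0.670, 0.753, 0.870 and 0.818 in MG53-TG replicates 1 to 4. The groups did not overlap, and the log2 ratio differed by 2.44 (two-sided exact permutation test, p = 0.0286, adjusted p = 0.0286 over 3 ratios, the smallest possible).

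A promoter window of each of these partners is shown because both genes rose and these windows held motif matches. Capitals mark matches on either strand to 7 motifs, which are letters searched for and not measured sites. For HNF1, a homeobox factor of absorptive epithelia, the letters were GTTAAT. For HNF4, a nuclear receptor of the villus, they were CAAAGTCCA. The zinc finger factors of the GATA family were given as AGATAA, and the intestinal homeobox factors of the CDX family were searched with the letters TTTATG. The TATA box of core promoters was searched as TATAAA. The core of amino acid response elements, which the factor Atf4 binds, was taken as TGATGNAA, and the palindromic E-box of basic helix-loop-helix factors as CACGTG. Adjacent or overlapping matches run together in the capitals, as the TATA box and GATA letters do once in Slc3a1. The first window is chr7:35448842-35449141 and the second chr17:85028097-85028396, both on the plus strand (RefSeq, GRCm38.p6). RefSeq gives Slc7a9 a second window, chr7:35448929-35449228, which held no match and is not shown.
Slc7a9 window: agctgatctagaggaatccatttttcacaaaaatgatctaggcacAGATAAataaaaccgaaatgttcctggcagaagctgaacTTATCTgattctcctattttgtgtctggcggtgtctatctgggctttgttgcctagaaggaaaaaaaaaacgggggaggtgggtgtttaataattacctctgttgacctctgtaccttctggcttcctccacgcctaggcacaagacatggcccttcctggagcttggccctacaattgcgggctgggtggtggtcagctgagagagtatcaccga
Slc3a1 window: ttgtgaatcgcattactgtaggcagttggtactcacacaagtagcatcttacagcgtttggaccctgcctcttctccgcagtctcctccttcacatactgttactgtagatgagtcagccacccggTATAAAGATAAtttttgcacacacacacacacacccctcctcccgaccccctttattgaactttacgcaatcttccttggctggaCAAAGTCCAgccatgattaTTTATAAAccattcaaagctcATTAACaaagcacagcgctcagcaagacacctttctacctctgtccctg

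The Slc7a9 window shown held 2 GATA matches, at -205 to -200 and -166 to -161 from the start site counted as 0. In the Slc3a1 window an HNF4 match lay at -39 to -31, an HNF1 match at 1 to 6, a GATA match at -119 to -114 and TATA box matches at -124 to -119, -20 to -15 and -18 to -13. RefSeq held 14 windows for 9 of the 10 genes. Of these 14 windows, 4 held a GATA match (Slc7a9, Slc3a1 and Slc7a7), 3 an HNF1 match (Slc3a1, Slc7a7 and Slc6a20a), 1 each an HNF4 and a TATA box match (Slc3a1) and 2 the amino acid response core (Slc7a7), some of them overlapping windows of 1 gene. The Slc7a7 windows with GATA or amino acid response matches had start sites at 54417679 to 54417944. No Slc7a7 start was listed there, and the nearest listed first exon was at 54413880 to 54414014. The CDX and E-box letters were in none of the 14 windows. Of all 32851 windows of the same length in the table, 11.2% held the GATA letters, 7.10% HNF1, 0.475% HNF4, 13.6% the TATA box, 3.97% the amino acid response core, 11.9% CDX and 7.15% the E-box.

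Slc7a9 also had a start and introns that differed between cultures. Its main first exon (35449037 to 35449146) made up 72.7%, 92.5%, 92.1% and 84.4% of its start FPKM in WT and 99.5%, 99.3%, 85.4% and 99.6% in MG53-TG (two-sided exact permutation test, adjusted p = 0.171). The difference was 10.5 percentage points and turned to -3.56 points when start events under 0.5 FPKM were dropped, so no direction is read from it. Transcripts that keep intron 4 (35453637 to 35454053, 417 bases) were 9.55%, 11.6%, 6.79% and 15.8% of the paired events in WT and 30.6%, 43.4%, 25.0% and 25.2% in MG53-TG. Intron 2 (35449887 to 35452368) was listed as kept in MG53-TG replicates 1, 3 and 4 only, at 15.8%, 11.7% and 13.2%. These introns too were chosen after their values were seen, and no test is given. The end rows that carried the Slc7a9 identifier lay outside the gene, failed the coordinate check and were not used.

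Slc15a1, the proton-coupled carrier of di- and tripeptides in the brush border (chromosome 14, 121459621 to 121505252, minus strand), was the lowest of the 9 in WT. Its end rows summed to 0.13, 0.0468, 0.128 and 1.12 FPKM in WT replicates 1 to 4 and to 1.86, 2.16, 4.47 and 4.91 FPKM in MG53-TG replicates 1 to 4. WT replicate 4 stood above the other WT cultures and still below each MG53-TG culture. The log2 fold change of FPKM + 1 was 1.67 ± 0.31 (SE, adjusted p = 0.00293, limma), and the means differed 9.43-fold from a WT mean of 0.355 ± 0.509 FPKM (SD, n = 4), under the filter of 0.5 FPKM that the gene passed through its MG53-TG mean of 3.35 FPKM, so its call gives little beyond those levels. That fold rests on WT replicate 4 and was 33.0 without it, from a WT mean of 0.102 FPKM. The log2 fold change was 1.91 without WT replicate 4 (adjusted p = 0.00203, limma), 1.21 without MG53-TG replicates 3 and 4 (adjusted p = 0.0225, limma) and 2.13 without replicates 1 and 2 (adjusted p = 0.00134, limma). By its start row, which was not listed in WT replicate 4, the WT cultures were at 0.102, 0.529 and 0.0998 FPKM in replicates 1 to 3.

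On the basolateral side, the light chains Slc7a7 and Slc7a8 rose and their heavy chain Slc3a2 did not pass the test. Slc7a7 encodes the exchanger that releases cationic amino acids against neutral ones and sodium (chromosome 14, 54369442 to 54417780, minus strand). It was at 17.6, 14.9, 12.1 and 16.6 FPKM in WT and at 34.3, 36.7, 32.2 and 34.3 FPKM in MG53-TG. The MG53-TG cultures lay within a narrow band about 2.25-fold above WT, with a log2 fold change of 1.13 ± 0.12 (SE, adjusted p = 0.000166, limma).

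Slc7a8, a light chain for neutral amino acids (chromosome 14, 54722209 to 54781946, minus strand), was at 3.81, 4.60, 3.87 and 3.95 FPKM in WT and at 11.8, 12.0, 14.5 and 15.6 FPKM in MG53-TG. The spread within WT was small (SD 0.367 FPKM), and the means differed 3.32-fold. Its log2 fold change was 1.51 ± 0.12 (SE, adjusted p = 3.47e-05, limma).

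Slc3a2 encodes the heavy chain that both light chains need at the membrane, and that other SLC7 light chains use (chromosome 19, 8706882 to 8723369, minus strand). It was the most abundant of the 9 in both groups, at 41.8, 38.4, 57.5 and 47.2 FPKM in WT and 41.7, 64.2, 58.4 and 58.9 FPKM in MG53-TG. MG53-TG replicate 1 lay among the WT cultures and the groups overlapped. The log2 fold change was 0.26, with a 95% interval of -0.11 to 0.64 (adjusted p = 0.223, limma), which spans fold changes of 0.926 to 1.56. Scaled by median of ratios, Slc3a2 had a log2 fold change of 0.45 (adjusted p = 0.0741, limma), so a rise as large as some of those called here cannot be left out.

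The ratios of Slc7a7 and Slc7a8 to the heavy chain were higher in MG53-TG. For Slc7a7 the ratio was 0.420, 0.388, 0.210 and 0.351 in WT and 0.824, 0.572, 0.552 and 0.582 in MG53-TG, and for Slc7a8 it was 0.0910, 0.120, 0.0673 and 0.0837 in WT and 0.284, 0.186, 0.249 and 0.265 in MG53-TG. Neither pair of groups overlapped, and the log2 ratios differed by 0.91 and 1.46 (two-sided exact permutation tests, p = 0.0286 and adjusted p = 0.0286 for each, the smallest possible). Without MG53-TG replicate 1 the Slc7a7 difference was 0.78 with adjusted p = 0.0571 by the exact permutation test. Slc7a7 and Slc7a8 together summed to 0.277 to 0.511 of Slc3a2 FPKM in WT and to 0.758 to 1.11 in MG53-TG. That sum leaves out other SLC7 light chains, of which Slc7a6 and Slc7a11 had lower means in MG53-TG. Slc7a6 averaged 9.09 FPKM in WT and 5.61 FPKM in MG53-TG and did not pass the test. Slc7a11 averaged 8.30 and 2.59 FPKM and was called as lower. With Slc7a5 not analysed here, the light chains of this heavy chain were not all measured, so their balance with Slc3a2 as a whole is not known.

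**Figure D3:**
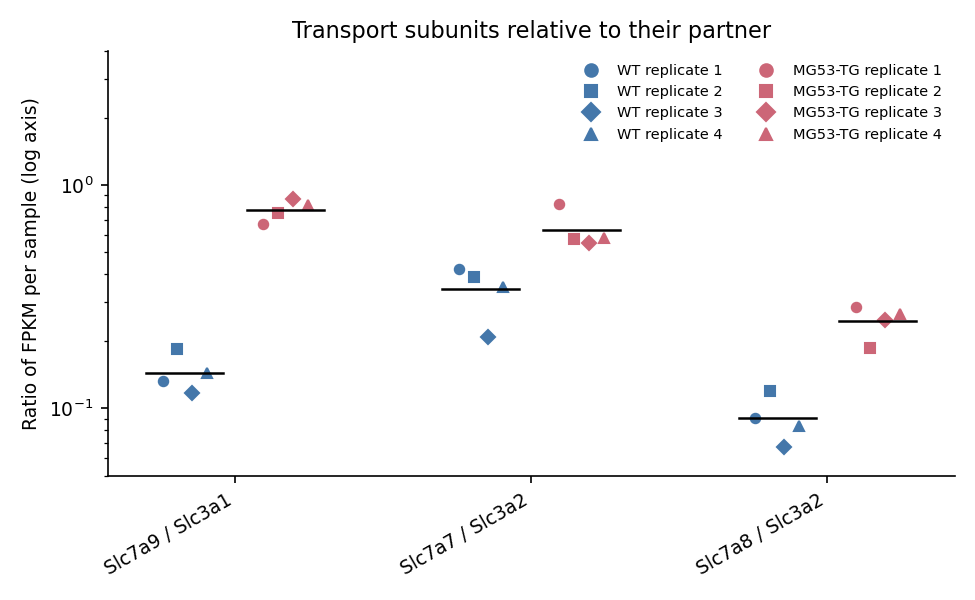
Ratio of the FPKM of a transport subunit to that of its partner in each culture, on a log axis, with WT in blue, MG53-TG in red and bars at the mean of 4 cultures. MG53-TG cultures lie above WT in all 3 ratios, and Slc7a9 to Slc3a1 moves from 0.145 to 0.778 on average.

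Slc1a1, the sodium-coupled carrier of glutamate, aspartate and cysteine (chromosome 19, 28835049 to 28913960, plus strand), did not pass the test. Its level was 7.23, 8.27, 11.6 and 10.3 FPKM in WT and 6.51, 3.90, 10.04 and 8.0 FPKM in MG53-TG, and the groups overlapped. The log2 fold change was -0.39, with a 95% interval of -0.96 to 0.18 (adjusted p = 0.231, limma). Without MG53-TG replicates 3 and 4 it was -0.75 (adjusted p = 0.0473, limma), and without replicates 1 and 2 it was -0.03 (adjusted p = 0.901, limma), so a call as lower rests on which cultures are used.

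Slc6a20a, a sodium-coupled carrier of proline and related imino acids (chromosome 9, 123634770 to 123678885, minus strand), was low throughout. It was at 0.620, 0.745, 1.29 and 0.838 FPKM in WT, had no row in MG53-TG replicates 1 and 2, and was at 0.984 and 0.624 FPKM in replicates 3 and 4. The fit dropped the cultures without a row as missing and gave a log2 fold change of -0.05, with a 95% interval of -0.52 to 0.42 (adjusted p = 0.858, limma). With those cultures set to 0 the change was -0.47 (adjusted p = 0.155, limma). Its near copy Slc6a20b had no value, and reads that fit both genes may have been placed in either.

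The order of the levels, which FPKM gives per length, changed with the genotype. In WT the order was Slc3a2, Slc3a1, Slc7a7, Slc1a1, Slc7a8, Slc7a9, Slc6a19, Slc6a20a and Slc15a1, and the neighbours Slc3a1 and Slc7a7, and the 3 lowest genes in turn, overlapped in range. In MG53-TG it was Slc3a2, Slc6a19, Slc3a1, Slc7a7, Slc7a9, Slc7a8, Slc1a1, Slc15a1 and Slc6a20a, and each of the 5 highest overlapped its neighbour among them, as did Slc1a1 and Slc15a1. Slc6a19 thus moved from rank 7 to rank 2 by the sum of all its starts. Most of that sum in MG53-TG lay at the start in intron 2, whose transcript has no coding sequence in GENCODE. The first exon of its coding transcript alone was at 9.13 to 19.4 FPKM in MG53-TG, so the rank may not hold for the coding transcript. Summed over the 9 genes, the level was 89.4 to 111 FPKM in WT and 208 to 263 FPKM in MG53-TG.

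The MG53-TG cultures with fewer proliferation transcripts, replicates 3 and 4, were the highest for 6 of the 8 transporters with a value in all MG53-TG cultures, namely Slc15a1, Slc6a19, Slc7a9, Slc3a1, Slc7a8 and Slc1a1. The same held for 19.8% of the 10035 genes tested that had a value in all MG53-TG cultures and for 52.0% of those called as higher, so such an order was common among genes that rose. Slc7a7 and Slc3a2 did not follow this order. The summed enterocyte markers were 12374 and 12025 FPKM in replicates 1 and 2 and 13346 and 13449 FPKM in replicates 3 and 4, and the part of this in the transporter levels was not tested.

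Other amino acid and peptide transporters were called in both directions. Of 42 listed, 28 had a value and 21 passed the filter, of which 4 were higher, 6 were lower and 11 did not pass the test, with a median log2 fold change of -0.14. Slc7a15 and Slc1a3 passed the filter through 1 group alone, and without them 3 of 19 were higher and 5 lower. The higher genes were Slc7a15, Slc43a2, Slc16a10 and Slc38a1. Those that passed as lower were Slc7a11, Slc1a4, Slc7a1, Slc1a3, Slc1a5 and Slc38a10. Over all genes tested 15.5% were higher and 29.2% lower, and over the 9719 genes that averaged at least 0.5 FPKM in both groups 14.6% and 28.5%.

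Among those that rose, Slc43a2, a facilitative carrier of large neutral amino acids, was at 2.95, 2.30, 1.38 and 2.65 FPKM in WT and at 6.33, 6.58, 12.4 and 12.9 FPKM in MG53-TG (log2 fold change 1.63 ± 0.26, SE, adjusted p = 0.00146, limma). Slc7a15, an SLC7 family member, was listed at 0 or absent in WT replicates 1, 2 and 4 and at 0.486 FPKM in replicate 3, and reached 1.95, 1.74, 5.13 and 4.73 FPKM in MG53-TG (1.89 ± 0.30, adjusted p = 0.00124, limma), and with a WT mean of 0.122 FPKM it passed the filter only through MG53-TG. Slc16a10, the carrier of aromatic amino acids on the basolateral side, rose from 6.84 ± 0.369 to 11.0 ± 1.04 FPKM (SD, n = 4, log2 fold change 0.61, adjusted p = 0.00189, limma). The call for Slc38a1, a sodium-coupled carrier of glutamine, was weak. It was at 57.5 to 71.8 FPKM in WT and 72.6 to 84.5 FPKM in MG53-TG (log2 fold change 0.29, adjusted p = 0.0326, limma), and its adjusted p was 0.0710 with the replicate number as a block.

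Among those that fell were carriers of cystine, glutamine and cationic amino acids. Slc7a11, the light chain of the cystine and glutamate exchanger, was at 6.5, 7.02, 11.5 and 8.22 FPKM in WT and at 2.35, 2.68, 2.37 and 2.95 FPKM in MG53-TG (log2 fold change -1.35 ± 0.17, SE, adjusted p = 0.000364, limma). Slc1a5, a carrier of glutamine, was at 62.7, 54.5, 61.8 and 54.3 FPKM in WT and at 38.1, 43.5, 21.7 and 19.97 FPKM in MG53-TG (-0.97 ± 0.24, adjusted p = 0.0112, limma). Slc1a4, a carrier of alanine, serine and cysteine, fell from 28.7 ± 1.96 to 13.4 ± 3.39 FPKM, and Slc7a1, the cationic amino acid carrier of most proliferating cells, from 20.1 ± 3.80 to 9.62 ± 3.27 FPKM (SD, n = 4). Slc1a3, a glutamate carrier, fell from 1.13 ± 0.087 to 0.0676 ± 0.0787 FPKM, having passed the filter only through WT, and Slc38a10 from 19.2 ± 2.09 to 11.1 ± 1.66 FPKM. Slc1a3 was at 0.122 and 0.148 FPKM in MG53-TG replicates 1 and 2 and had no row in replicates 3 and 4, which counted as 0. The log2 fold changes of Slc1a4, Slc7a1, Slc1a3 and Slc38a10 lay between -1.07 (Slc1a4) and -0.75 (Slc38a10), with adjusted p of at most 0.00933 (limma). For each of the 6 genes all MG53-TG cultures lay below WT, as the rule for naming them required. The same held for 29.1% of all genes tested.

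Slc7a6, a light chain close to Slc7a7 in function, was at 8.89, 8.82, 8.99 and 9.67 FPKM in WT and at 7.24, 8.32, 3.62 and 3.27 FPKM in MG53-TG (log2 fold change -0.69, adjusted p = 0.0511, limma), with lower values in replicates 3 and 4, and it passed as lower without replicates 1 and 2 (-1.18, adjusted p = 0.000159, limma). Slc36a1, a proton-coupled carrier of small amino acids, was at 2.02 to 3.00 FPKM in WT and 1.39 to 3.51 FPKM in MG53-TG (log2 fold change -0.02, 95% interval -0.48 to 0.45, adjusted p = 0.951, limma). Slc6a14 and Slc6a18 had no value.

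**Figure D4:**
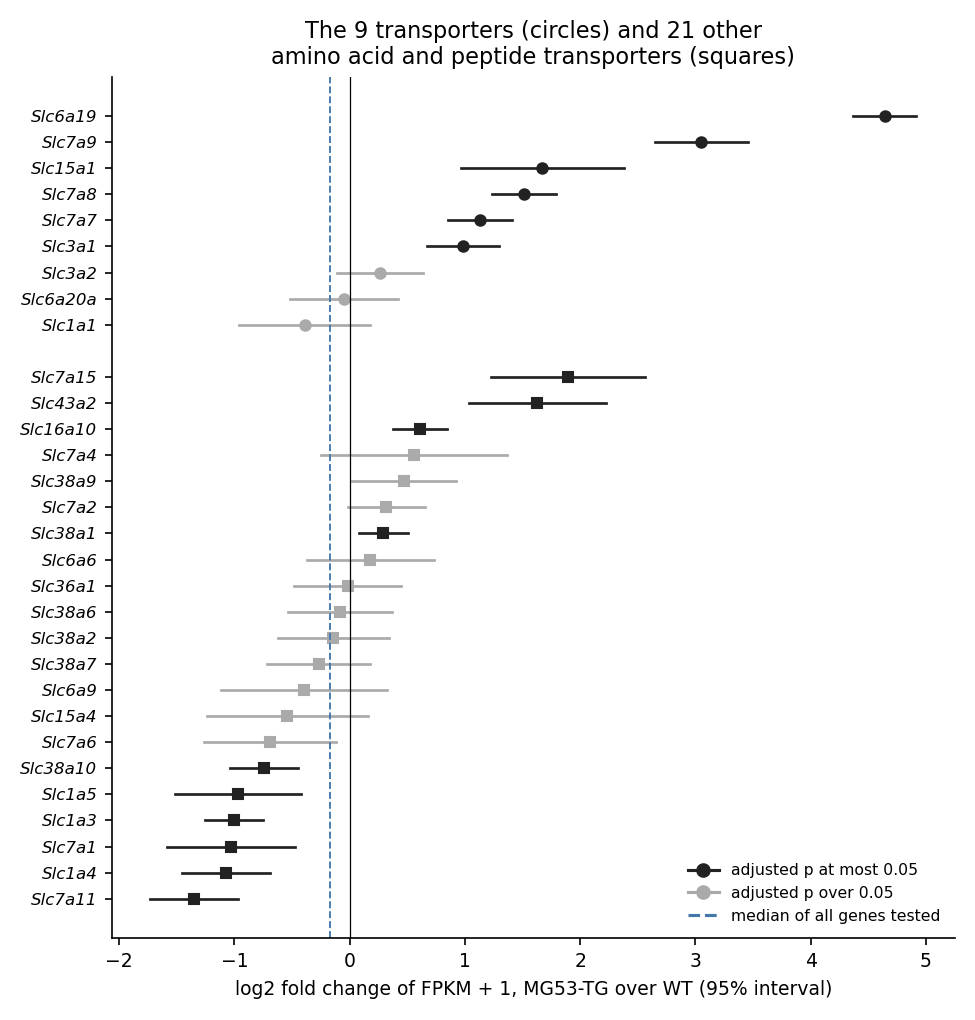
Log2 fold change of FPKM + 1, MG53-TG over WT, with 95% intervals from limma, for the 9 transporters (circles) and the 21 other amino acid and peptide transporters past the filter (squares), in black where the adjusted p was at most 0.05. The blue dashed line is the median of all genes tested, -0.17, and Slc6a19 at 4.64 and Slc7a9 at 3.05 lie farthest from it.

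Genes for the partners and driving gradients of the brush border carriers were also measured. Of 7 given here, 6 passed the filter, of which 4 were higher and 0 lower, beside the 15.5% and 29.2% of all genes, with a median log2 fold change of 0.85 beside -0.17. Without Pdzk1, which passed the filter through MG53-TG alone, 3 of 5 were higher and the median was 0.69. By end rows alone 4 of these genes were tested and 1, Slc9a3r1, was called. Cltrn, which brings Slc6a19 to the membrane in the kidney, was under the filter, at 0.293 ± 0.132 FPKM in WT and listed at 0 or absent in MG53-TG.

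Slc9a3, the sodium and proton exchanger that maintains the proton gradient for peptide uptake, was at 1.01, 1.54, 1.94 and 1.9 FPKM in WT and at 15.0, 25.2, 10.8 and 13.9 FPKM in MG53-TG (log2 fold change 2.68 ± 0.24, SE, adjusted p = 5.73e-05, limma). By end rows alone it was 1.13 with adjusted p = 0.253 (limma). The scaffold gene Pdzk1 had no row in WT replicate 1, which counted as 0, and was at 0.248 to 0.281 FPKM in WT replicates 2 to 4. Its WT mean was 0.202 FPKM, and it was at 3.51 to 9.60 FPKM in MG53-TG (log2 fold change 2.58). The scaffold gene Slc9a3r1 rose from 61.3 ± 0.377 to 99.3 ± 6.05 FPKM (SD, n = 4, 0.69). Atp1b1, the beta subunit of the sodium pump, rose 2.01-fold from a mean of 367 FPKM, with a log2 fold change of 1.01. The adjusted p of these 3 genes was at most 0.000175 (limma). Slc9a2 and Slc9a3r2 did not pass the test, with log2 fold changes of 0.25 and 0.24 (adjusted p = 0.125 and 0.324, limma).

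Genes that respond to amino acid shortage were called in both directions. Of 31 listed, 27 passed the filter, of which 3 were higher, 16 were lower and 8 did not pass, where 15.5% of all genes were higher and 29.2% lower, with a median log2 fold change of -0.67 beside the -0.17 of all genes. With median-of-ratios scaling 3 were higher and 13 lower, beside 20.6% and 20.4% of all genes. Of 6 enzymes of serine and one-carbon synthesis, 4 were lower, and Phgdh and Aldh1l2 did not pass (log2 fold changes -0.75 and -0.28, adjusted p = 0.0949 and 0.147, limma). Of 9 enzymes of tRNA charging tested, 7 were lower, such as Cars at 33.2 ± 3.88 FPKM in WT and 13.5 ± 2.67 FPKM in MG53-TG (SD, n = 4, log2 fold change -1.24, adjusted p = 0.000284, limma), and Nars and Sars did not pass (-0.51 and -0.02, adjusted p = 0.208 and 0.929, limma). These groups within the list were formed, and Cars, Phgdh, Aldh1l2, Nars and Sars named, after its values were seen. Psph, the last enzyme of serine synthesis, was at 22.5, 23.0, 18.8 and 15.2 FPKM in WT and at 9.21, 5.63, 3.71 and 3.28 FPKM in MG53-TG (log2 fold change -1.76, adjusted p = 0.00114, limma). Psat1, also of serine synthesis, and Shmt2, which takes a one-carbon unit from serine, had log2 fold changes of -1.34 and -1.70 (adjusted p = 0.0144 and 0.0181, limma), with lower levels in MG53-TG replicates 3 and 4 than in 1 and 2. The Shmt2 call was lost without MG53-TG replicate 3 (adjusted p = 0.0515, limma). Ddit4, an inhibitor of growth signalling, fell from 151 ± 15.4 to 31.7 ± 7.08 FPKM (SD, n = 4, log2 fold change -2.24, adjusted p = 1.70e-05, limma), and Asns, asparagine synthetase, from 114 ± 15.0 to 68.8 ± 12.6 FPKM (-0.72, adjusted p = 0.00475, limma).

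The 3 genes called as higher in this list encode transcription factors. Ddit3 was at 9.42 to 11.5 FPKM in WT and 16.3 to 33.0 FPKM in MG53-TG (log2 fold change 1.03, adjusted p = 0.00281, limma), and Atf5 at 24.4 to 26.9 and 38.8 to 73.6 FPKM (0.89, adjusted p = 0.00522, limma). Atf4, the central factor of the response, was at 71.6, 68.3, 134 and 85.3 FPKM in WT and at 133, 135, 132 and 147 FPKM in MG53-TG (0.65, adjusted p = 0.0241, limma). WT replicate 3 lay within the MG53-TG range, so the groups overlapped, and the call was lost in 4 of 8 fits that left out 1 culture, namely WT replicate 1, 2 or 4 or MG53-TG replicate 4 (adjusted p of at most 0.0650, limma), and in 7 of all 21 alternatives.

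**Figure D5:**
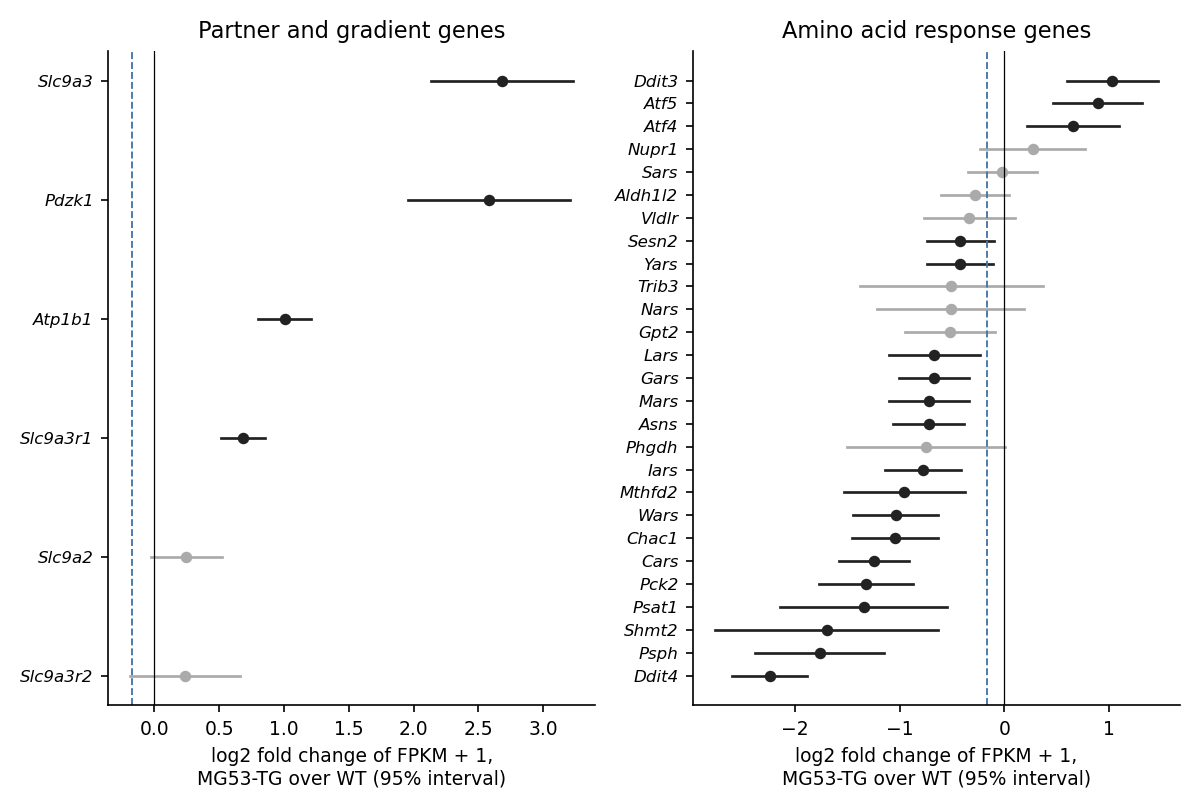
Log2 fold change of FPKM + 1, MG53-TG over WT, with 95% intervals from limma, for 6 partner and gradient genes (left) and 27 amino acid response genes (right), in black where the adjusted p was at most 0.05, with the median of all genes as a blue dashed line. Slc9a3 at 2.68 is farthest to the right, and Ddit4 at -2.24 is farthest to the left.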

How the data were processed

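Small intestinal crypt organoids of WT and MG53-TG mice were sequenced, with 4 samples each. Reads were trimmed with Cutadapt 1.9.1 and mapped to mm10 with HISAT2 2.0.1, per the submitters' processing notes, which also name HTSeq 0.6.1 and DESeq2. The authors deposited FPKM values per transcript event (a start, an end, a kept or skipped exon or intron), and the tool that made these tables is not given in the sources used here. The smallest FPKM was 1e-06, whole reads could not be recovered and the depth is unknown, so no count test was run. FPKM sums over starts were 269837 to 273797 in WT and 269094 to 284330 in MG53-TG.

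A gene's FPKM was the sum of its start rows, or of its end rows where that mean was higher (3257 genes), keeping the 85.3% of 49773 start and end events whose coordinates matched exon boundaries of the named gene in GENCODE vM21 (GRCm38). Where a gene had no row in a sample, it counted as missing when the median of the other samples in that group reached 0.5 FPKM, and as 0 when it did not. Groups were compared on log2(FPKM + 1), a scale that understates the change of low genes, by a moderated fit with a mean-variance trend (limma 3.58.1, R 4.3.3). Genes averaging 0.5 FPKM or more entered the fit, p-values were adjusted over all of them by Benjamini-Hochberg, and the threshold was 0.05. Ratios and shares were compared by two-sided exact permutation tests over 70 relabellings with Python 3.11.15 and scipy 1.17.1, adjusted over the 3 ratios and the 4 shares.

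The members and lists were chosen with earlier results of these data known, and a few genes of the lists are not reported here. Named were all 10 members; of the other transporters up to 6 per direction with the largest called change and groups that did not overlap, plus Slc7a6, Slc16a10, Slc6a14, Slc1a5, Slc43a2, Slc6a18 and Slc36a1; all partners; up to 4 amino acid response genes per direction by the same rule plus Atf4 and Asns (Cars, Phgdh, Aldh1l2, Nars and Sars were added after their values were seen); and for Slc15a1, Slc7a9 and Slc3a2 the 3 genes with the highest Pearson r over 8 samples. Alternatives were a pseudocount of 0.1, dropping the filter or raising it to 2 FPKM, scaling by median of ratios or by quantiles, a replicate block, start or end rows alone, genes by coordinates, absent genes as 0, start events averaging 0.5 FPKM or more, and leaving out each sample. Rows without the coordinate check, and leaving out a pair of MG53-TG samples, were added after seeing the data.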

Additional observations from a re-analysis of the deposited data

Results flagged for a closer look

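Of 65 groups of 4 cultures examined for a culture far from the rest, 2 were found, where chance finds about 1 in 20, or 3.25. Atf5 stood at 73.6 FPKM in MG53-TG replicate 2, with the other MG53-TG cultures at 38.8 to 42.9 FPKM. Atp1b1 stood at 327 FPKM in WT replicate 1, with the other WT cultures at 377 to 383 FPKM.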

How the results depend on the processing

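The calls of Slc6a19, Slc7a9, Slc3a1, Slc7a7 and Slc7a8 as higher held under each alternative that gave them a value. So did that of Slc15a1, which says nothing of its stability since it passed the filter through MG53-TG alone. Slc15a1 is not tested under the filter of 2 FPKM, and Slc7a9 has no value by end rows, so 5 transporters were called under each of these. Leaving out each culture in turn gave 3650 to 4865 genes differing, 6 transporters (Slc15a1 among them), 9 to 12 other transporters, 4 partners and 15 to 21 amino acid response genes. With the replicate number as a block, 4196 genes and 6 transporters were called, and of the named genes Slc38a1 lost its call (adjusted p = 0.0710). Deviations of same-numbered cultures correlated at 0.0917, -0.00302, 0.0939 and -0.0505, so the numbers were not taken as pairs. By end rows 1 partner gene was called. Slc6a20a turned to 0.083 when scaled by median of ratios and to 0.095 when scaled by quantiles, and ranged from -0.19 to 0.095 when each culture was left out (0.05 without WT replicate 3, 0.095 without MG53-TG replicate 4). Slc36a1 turned to 0.12 under both scalings and 0.11 without MG53-TG replicates 1 and 2, and ranged from -0.13 to 0.18 (0.03 without WT replicate 1, 0.01 without WT replicate 3, 0.18 without MG53-TG replicate 1). Without MG53-TG replicates 3 and 4 Slc1a1 passed as lower (-0.75). The Slc7a7 to Slc3a2 difference ranged from 0.69 to 1.03 and missed the threshold only without MG53-TG replicate 1 (0.78). The Slc7a9 start share turned to -3.56 points when start events under 0.5 FPKM were dropped. Among single genes, Atf4 lost its call without WT replicate 1, 2 or 4, without MG53-TG replicate 4, without either MG53-TG pair and with quantile normalization (adjusted p up to 0.115), Shmt2 without MG53-TG replicate 3 (adjusted p = 0.0515), and Slc38a1 without WT replicate 1, 2 or 4, MG53-TG replicate 1, 2 or 3, without MG53-TG replicates 1 and 2, and with quantile normalization (adjusted p up to 0.107). Slc7a6 passed as lower without MG53-TG replicate 1 or 2 (adjusted p = 0.0336 and 0.0136) and without both (-1.18, adjusted p = 0.000159), and Slc9a2 under both scalings (0.41). The causes were not tested. The depth is unknown and limits the genes near 1 FPKM, Slc15a1, Slc6a19 and Slc6a20a in WT.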

Other observations

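Genes whose log2(FPKM + 1) followed a transporter most closely over the 8 cultures are given as a description, since the cultures share 2 genotypes. For Slc7a9 these were Gm8909, Slc2a2, the basolateral glucose carrier, and Acaa2, an enzyme of mitochondrial fatty acid oxidation, each with Pearson r = 0.998 or 0.997, and 544 genes exceeded 0.95. For Slc15a1 they were Rnf152 (r = 0.988), Pfkfb4 (0.983) and Abhd1 (0.982), with 89 genes over 0.95. For Slc3a2, which did not pass the test between the genotypes, they were Eepd1 (0.939), Rnf2 (0.919) and Zfp950 (0.917).

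Slc15a2, the peptide carrier of kidney and brain, was under the filter. It was at 0.0319 FPKM in WT replicate 1, at 0 or absent in the other WT cultures, and at 1.23, 1.22 and 0.536 FPKM in MG53-TG replicates 1, 2 and 4, with no row in replicate 3. Slc7a3, a cationic amino acid carrier also under the filter, was at 1.01, 1.22, 0.392 and 0.306 FPKM in WT and listed at 0 or absent in MG53-TG. Both were chosen after their values were seen. The start of Slc3a2 at its most upstream exon (chromosome 19, 8722984 to 8723369) was at 2.72, 1.70, 1.2 and 0.180 FPKM in WT and at 0.978, 3.20, 3.94 and 11.6 FPKM in MG53-TG, a range that overlapped between the groups, and the share of its main start did not differ past the test (95.6% in WT, 90.5% in MG53-TG, two-sided exact permutation test, adjusted p = 0.343). For Slc7a7 the share of its main start was 54.1% in WT and 62.6% in MG53-TG (adjusted p = 0.714, exact permutation test).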
